A study of Homo sapiens with 6 samples.

Results

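Long noncoding RNAs are transcripts that act as RNA rather than as templates for protein, and several of them are named in the cancer field as promoters or suppressors of tumor growth. The set described here holds 10 of them, MALAT1, NEAT1, H19, HOTAIR, MEG3, GAS5, PVT1, TUG1, UCA1 and CCAT1, chosen by name from the 81496 gene symbols on the array. Each was found by its exact symbol, which gave 12 probe sets, since MALAT1 and H19 have 2 each. A probe set is the group of short oligonucleotide probes that reads 1 transcript, and for a gene with 2 of them the brighter on average, over the 5 arrays compared, is called its main probe set. RefSeq lists 9 of the 10 as lncRNA and now lists TUG1 as protein coding.

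The cells compared were MCF10.AT1 and MCF10.AT1-R. MCF10.AT1 is a preneoplastic human breast epithelial line that descends from MCF10A and was derived with an activated HRAS, which both lines therefore carry. MCF10.AT1-R was selected from it in the statin fluvastatin, an inhibitor of the cholesterol pathway enzyme HMG-CoA reductase, at rising doses from 1 and 5 µM up to 20 µM, and is 1 selected line. The labels give the parental cells as untreated, and the study names 1 medium for its lines, with horse serum, EGF, hydrocortisone and insulin. Total RNA of 3 replicates per line was read on Clariom D arrays, and the authors deposited log2 expression values made by the RMA method. The comparison used arrays A01 and A02 of MCF10.AT1 and B02, B03 and B04 of MCF10.AT1-R. A03 of MCF10.AT1, which the study set aside as an outlier, is given apart. The labels call the replicates biological, but nothing says that they came from separate cultures, so the tests measure the spread between these arrays, and the letters A and B of the array names cannot be told apart from the lines.

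The 5 arrays correlated with each other at 0.967 to 0.977, and A03 correlated with them at 0.779 to 0.795. Signal was read against the 612 negative control probe sets of the array, whose 95th percentile averaged 2.99 on the log2 scale over the 5 arrays and is called the floor here. In the comparison of the lines 620 of 51457 tested probe sets passed the FDR of 5% in limma, which is 1.20%, with 390 (0.758%) higher and 230 (0.447%) lower in MCF10.AT1-R. All 12 basal mammary epithelial markers were above the floor on all 5 arrays, and of 6 luminal hormone receptor markers 3 (PGR and TFF1 among them) were below it on all 5 and 2 (GATA3 and FOXA1) were above it on all 5.

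The 10 transcripts act at different places in the cell. MALAT1 and NEAT1 lie next to each other on chromosome 11 and stay in the nucleus, MALAT1 in the splicing speckles and NEAT1 as the scaffold of paraspeckles. H19 and MEG3 come from imprinted loci, where only the allele of 1 parent is read, and HOTAIR, from the HOXC cluster, and TUG1 were studied as partners of the chromatin complex PRC2. GAS5 is spliced from the host of a row of snoRNAs and accumulates when growth stops. PVT1 and CCAT1 lie on either side of MYC, and UCA1, first described in bladder carcinoma, is known for its rise in several epithelial cancers and in drug-resistant cells.

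Start regions of 5 of the 10 genes were found in RefSeq on GRCh38.p14, and those of H19 and MALAT1 are printed here because these 2 members read lower on all resistant arrays, as described after UCA1. Each runs from 250 bases before to 50 bases after the start site, 5′ to 3′ in the direction of transcription. The H19 window, at the only start listed for it in the source used, lies on the minus strand at chr11:2001217-2001516. The MALAT1 window, the first of 2 listed for the gene, lies on the plus strand at chr11:65497488-65497787. Capitals mark GGGCGG, the core of an SP1 site, or its reverse complement.
H19: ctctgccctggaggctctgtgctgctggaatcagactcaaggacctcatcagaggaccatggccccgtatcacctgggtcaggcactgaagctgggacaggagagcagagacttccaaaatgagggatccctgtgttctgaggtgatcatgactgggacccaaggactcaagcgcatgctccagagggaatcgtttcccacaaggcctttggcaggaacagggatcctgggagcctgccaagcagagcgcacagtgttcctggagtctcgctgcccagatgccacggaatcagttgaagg
MALAT1: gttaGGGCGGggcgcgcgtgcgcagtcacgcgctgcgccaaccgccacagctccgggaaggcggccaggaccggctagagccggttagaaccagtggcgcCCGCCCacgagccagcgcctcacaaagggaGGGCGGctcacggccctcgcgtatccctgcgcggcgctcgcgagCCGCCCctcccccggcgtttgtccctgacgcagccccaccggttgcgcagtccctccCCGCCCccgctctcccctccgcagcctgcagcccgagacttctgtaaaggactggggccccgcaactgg
The windows differ in base composition. The one of MALAT1 is 73.7% G and C with 37 CpG pairs and holds the SP1 core at 5 places, while the one of H19 is 57.7% G and C with 6 CpG pairs and holds none. Over all 35116 start regions of that length 45.0% hold the SP1 core on either strand. Neither window holds TATAAA (in 11.5% of all), CCAAT (34.6%), the AP-1 site TGANTCA (7.71%) or the MYC and MAX site CACGTG (7.26%), all searched on both strands. A match in letters is not a bound site, and a missing one says nothing about the factor. Whether transcription in either line starts at these listed sites, or at others, was not tested. UCA1, NEAT1, HOTAIR, PVT1 and CCAT1 are named only.

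Among the 10 lncRNAs, UCA1 was the only one whose main probe set passed the FDR of 5%. Of the 10, 6 main probe sets were tested (UCA1, H19, MALAT1, MEG3, PVT1 and CCAT1), and 1 of these 6 was higher in MCF10.AT1-R, against 0.758% of all probe sets tested. The other 4 (NEAT1, HOTAIR, GAS5 and TUG1) had an SD over the 5 arrays of 0.12 to 0.15, under the limit of 0.18, and are given with estimates from a fit without the filter. For 5 of the 10 every MCF10.AT1-R array lay on the same side of both MCF10.AT1 arrays (UCA1, TUG1 and CCAT1 higher, H19 and MALAT1 lower), which held for 26.7% of the probe sets tested and 23.3% of all transcript probe sets (12.2% higher and 11.1% lower). Of these 5, CCAT1 was under the floor on all 5 arrays, and the lines were apart by only 0.03 for TUG1. With values raised to the floor the count was 4. Estimates were below 0 for 7 of the 10 and above it for 3, with a median of -0.13 on the log2 scale against 0.01 over all transcript probe sets.

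**Figure D1:**
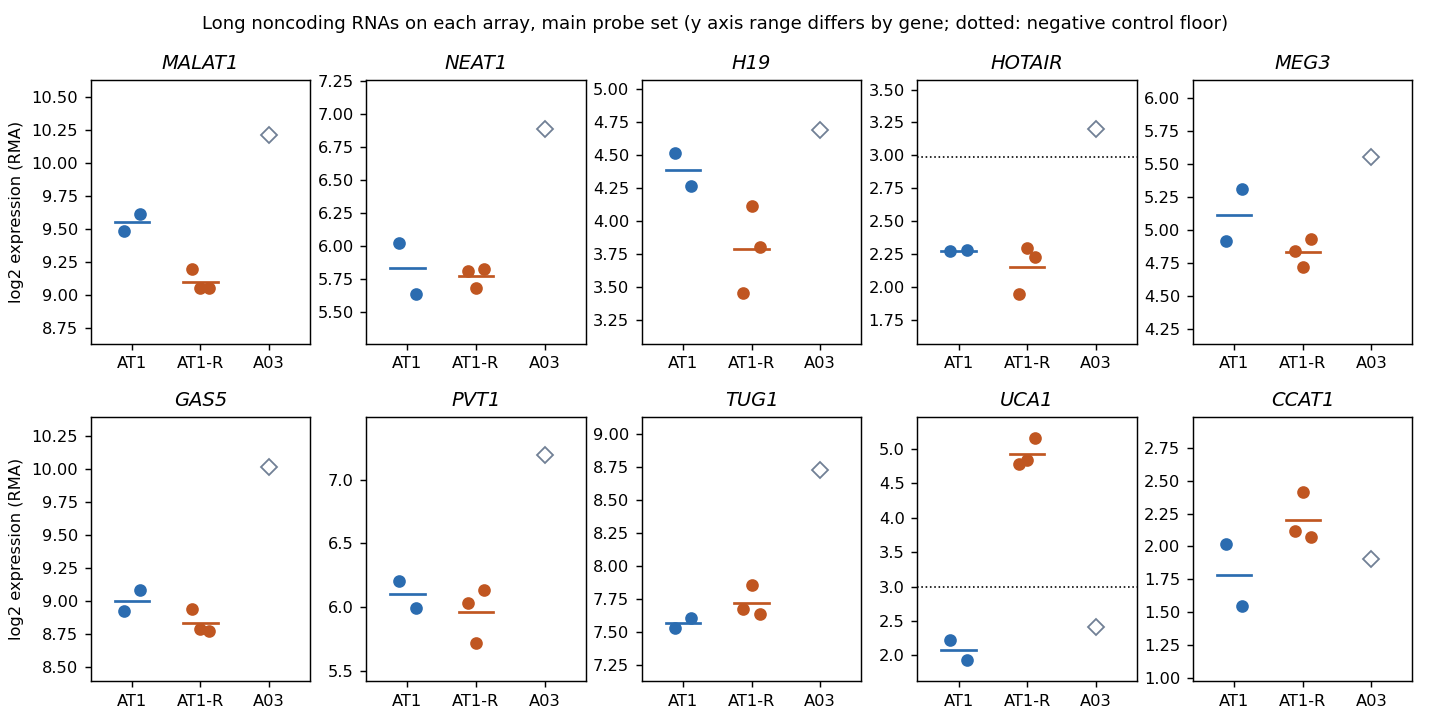
Log2 expression (y axis, RMA values, range differs by gene) of the main probe set of each of the 10 lncRNAs on the MCF10.AT1 arrays A01 and A02 (blue), the MCF10.AT1-R arrays B02, B03 and B04 (orange) and A03 (open diamond), with group means as bars and the floor of 2.99 as a dotted line where it falls in range. UCA1 is under the floor on both MCF10.AT1 arrays and above it on all MCF10.AT1-R arrays, while the means of the lines differ by 0.60 at most for the other 9.

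UCA1 rose in the resistant line from below the floor to a readable level. It read 2.23 on A01 and 1.93 on A02, and 4.78 on B02, 4.84 on B03 and 5.16 on B04. Both parental arrays were under the floor of 2.99 and all resistant arrays were above it, so the groups did not overlap and the parental level has only an upper bound. The measured means were 2.08 ± 0.21 (SD, n = 2) and 4.93 ± 0.20 (SD, n = 3), a log2 change of 2.85 (SE 0.31, 95% interval 2.24 to 3.46, adjusted p = 9.14e-17 in limma). With the parental arrays set to the floor of 2.99, UCA1 was 3.83-fold higher in MCF10.AT1-R. The adjusted p was 0.0218 in limma when all values under the floor were raised to it. The negative controls of A01 and A02 had 95th percentiles of 3.14 and 3.03, above this average. A bound taken from those arrays would therefore be smaller. It passed the threshold under every alternative tried, including the addition of A03 to MCF10.AT1 (2.74, adjusted p = 0.0435), on which UCA1 read 2.42, also under the floor. The adjusted p of 9.14e-17 in limma rests on a common SD of 0.34 for all probe sets, where the residual SD of UCA1 was 0.21. In the limma fit without a filter on probe sets, where the SD used differed by probe set, its adjusted p was 0.00242.

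Markers of epithelial differentiation moved with UCA1 between the lines. Of 12 basal mammary epithelial markers 11 were tested and 7 rose, where 0.758% of all probe sets tested did. Among the 7 were the keratins KRT17, by 4.08, and KRT14, by 2.37 on the log2 scale. Of 14 cornifying keratinocyte markers 12 were tested and 5 rose, against the same 0.758%. The envelope proteins SPRR2D (5.22) and IVL (3.23) led these 5. The log2 values of the 14 summed to 45.1 to 45.8 on the MCF10.AT1 arrays and 57.5 to 61.9 on the MCF10.AT1-R arrays. The late markers FLG and KRTDAP and the crosslinking enzyme TGM1 were under the floor on all 5 arrays. The part of these markers in the UCA1 result was not tested.

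UCA1 was 1 of 6 RefSeq lncRNAs that rose, and 5 others fell, out of 1111 tested (0.99%). LINC01322, little described, read 2.33 and 2.31 on the MCF10.AT1 arrays and 5.03, 4.86 and 5.16 on the MCF10.AT1-R arrays, a change of at least 4.07-fold. Like UCA1 it was under the floor in the parental line, so both folds rest on that floor and have no order. MIR205HG, the host transcript of the epithelial microRNA miR-205, was above the floor throughout and rose by 1.62 on the log2 scale (adjusted p = 5.73e-05 in limma). The others that rose were RUNX1-IT1 (1.45), LURAP1L-AS1 (1.83-fold against the same floor) and HRAT17 (1.35 as measured). HRAT17 was under the floor on both MCF10.AT1 arrays and on B02 (2.78), so its fold against the floor is not given. LURAP1L-AS1 and HRAT17 had MCF10.AT1 means of 1.64 and 1.68, under the limit of 1.88 on mean level for testing. They were thus tested only through their MCF10.AT1-R values. Those that fell were RASSF8-AS1 (-1.87), FOXC2-AS1 (-1.71), SERTAD4-AS1 (-1.42), NR2F1-AS1 (-1.23) and PPP1R26-AS1 (-1.19). FOXC2-AS1, SERTAD4-AS1 and PPP1R26-AS1 had resistant arrays under the floor, and with values raised to it their differences were -1.38, -1.36 and -0.56. The identifier of the SERTAD4-AS1 probe set names no chromosome.

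**Figure D2:**
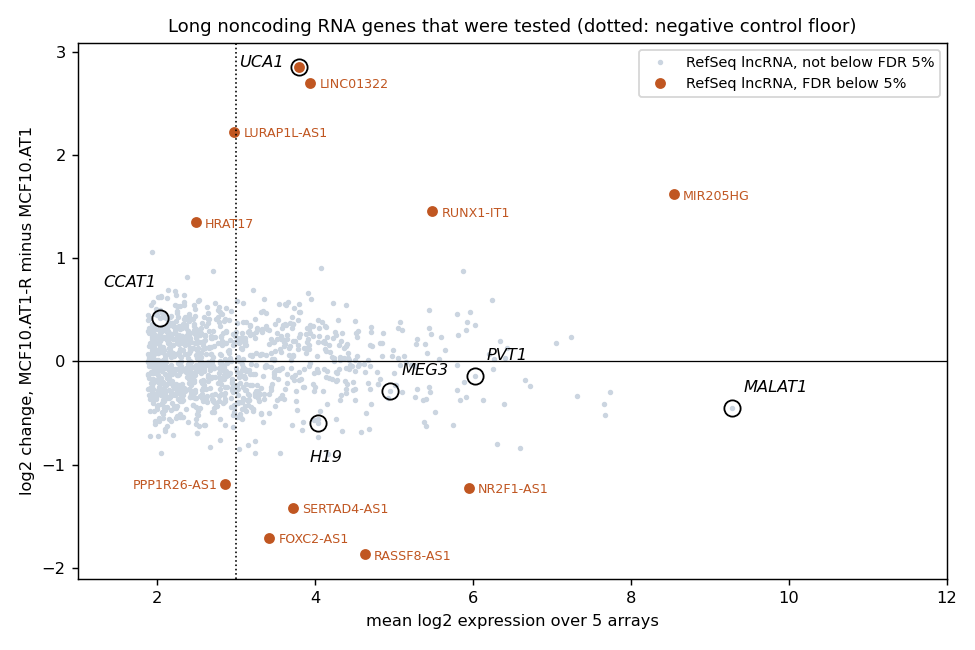
Log2 change between the lines (y axis) against mean log2 expression over the 5 arrays (x axis) for the 1111 RefSeq lncRNAs that were tested, with those past the FDR of 5% in orange, the 6 tested members of the set circled and the floor dotted. UCA1 (2.85) stands with LINC01322 (2.70) above the cloud, and H19, MALAT1, MEG3, PVT1 and CCAT1 lie within it.

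The protein-coding genes around UCA1 were looked up after its values had been seen. CYP4F11, an enzyme of fatty acid oxidation and the second such gene after UCA1 on chromosome 19, read 3.27 and 3.87 on the MCF10.AT1 arrays and 4.72, 4.54 and 4.69 on the MCF10.AT1-R arrays, and rose by 1.08 on the log2 scale (SE 0.31, adjusted p = 0.0441 in limma). Without the filter on probe sets its adjusted p was 0.265. Its neighbour CYP4F2, which lies between it and UCA1, was above the floor with a change of 0.29 and did not pass the test. The olfactory receptors OR10H1, OR10H3, OR10H4 and OR10H5 nearby were under the floor on all 5 arrays. Over the 3 nearest protein-coding genes on each side of all 10 lncRNAs, 48 of 50 were found on the array and 33 were tested. CYP4F11 was the only one past the threshold, which 1.20% of all probe sets tested passed.

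H19 is an imprinted, growth-restraining transcript of fetal tissues that is read again in many tumors and is the source of miR-675. Its main probe set read 4.52 on A01 and 4.26 on A02, and 3.46 on B02, 4.12 on B03 and 3.81 on B04. All resistant arrays were below both parental ones, by as little as 0.15 between A02 and B03. The change was -0.60 (SE 0.31, 95% interval -1.21 to 0.01, adjusted p = 0.620 in limma) and did not pass the threshold.

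The second H19 probe set, whose identifier names an unlocalized scaffold of chromosome 11, gave a larger difference. It read 4.49 on A01 and 3.99 on A02, and 2.94, 2.91 and 3.07 on the resistant arrays, of which only B04 was above the floor. It fell by 1.27 on the log2 scale (SE 0.31, 95% interval -1.88 to -0.66, adjusted p = 0.00704 in limma). The call did not hold with A03 added (adjusted p = 0.777), with array weights (0.0868), with the low-expression filter alone (0.0995), without a filter (0.126), with values raised to the floor (-1.22, 0.0811) or without A01 (-1.02, 0.500). The mean of both H19 probe sets differed by -0.93 with an adjusted p of 0.141. Both probe sets lay lower in MCF10.AT1-R, and 1 of the 2 was called.

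Of the imprinted genes near H19 and MEG3 13 were found on the array and 9 were tested with limma. None passed, with 2 at an unadjusted p below 0.05 and 0 with the trend option, and 4 of the 13 read lower on all resistant arrays and 1 higher, against 11.1% and 12.2% of all transcript probe sets. Of the 4, RTL1 was under the floor on all 5 arrays and KCNQ1OT1 on all but 1. IGF2, the growth factor gene that shares its imprinting control region with H19, had means of 3.70 and 3.07, a change of -0.63 with an adjusted p of 0.570 in limma. It read 3.19 on A01 and 4.22 on A02, and 3.08 on B02, 3.01 on B03 and 3.13 on B04. The lines did not overlap, but A01 lay close to the resistant arrays. MRPL23, a mitochondrial ribosomal protein gene next to H19, differed by -0.52 (adjusted p = 0.724). Of 8 tested genes of the imprinted network elsewhere DCN, which encodes the matrix proteoglycan decorin, fell by 2.15 on the log2 scale (adjusted p = 3.88e-09 in limma), and the others did not pass. Over all probe sets tested 0.447% were called lower.

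MEG3, the maternally read transcript of the DLK1 and MEG3 domain and a candidate tumor suppressor, read 4.92 and 5.32 on the MCF10.AT1 arrays and 4.84, 4.73 and 4.93 on the MCF10.AT1-R arrays. B04 lay above A01, so the lines overlapped. The change was -0.28 (SE 0.31, 95% interval -0.89 to 0.33, adjusted p = 0.840 in limma). A further probe set under the symbol MEG3_1, which is no member by its symbol, had means of 5.26 and 5.36 and overlapped too. DLK1, the paternally read neighbour of MEG3, was under the floor on all 5 arrays, and MEG9, a lncRNA of the same domain, differed by 0.31 (adjusted p = 0.838) with all resistant arrays higher.

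MALAT1 is a long nuclear transcript of the speckles, where splicing factors gather, and is known as a marker of metastasis in lung cancer. Its main probe set read 9.48 on A01 and 9.61 on A02, and 9.19 on B02, 9.05 on B03 and 9.05 on B04. The lines did not overlap and the arrays within a line lay within 0.13 and 0.14 of each other. The difference was -0.45, or 1.37-fold lower in MCF10.AT1-R (SE 0.31, 95% interval -1.06 to 0.16, adjusted p = 0.784 in limma). Its own residual SD was 0.0849, and the fit used a common SD of 0.34 for all probe sets. With the trend option of limma, which lets the SD depend on the level, MALAT1 passed with an adjusted p of 0.000372, where 2.68% of probe sets passed, and it also passed in both other fits with that option (0.0135 and 0.00634) and in none without it. The second MALAT1 probe set was under the floor on all 5 arrays.

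NEAT1, needed for paraspeckles and known as a target of p53, read 6.02 and 5.64 on the MCF10.AT1 arrays and 5.81, 5.69 and 5.83 on the MCF10.AT1-R arrays. The resistant arrays lay between the parental ones. The difference was -0.06 (95% interval -0.52 to 0.40 in the fit without a filter), and it turned to 0.14 without A01.

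Of the genes that encode protein partners of these nuclear transcripts, none that was tested passed in limma without the trend option. Only RNA was read, not protein. Of 20 paraspeckle proteins 9 were tested with limma and none was called, with 0 at an unadjusted p below 0.05 and 3 (EWSR1 and RBM3 among them) past the threshold with the trend option. On all resistant arrays 3 of the 20 read higher and 5 lower, against 12.2% and 11.1% of all transcript probe sets, and the median change was -0.01. The RNAs of the core paraspeckle proteins SFPQ and PSPC1 differed by -0.29 and -0.28 (adjusted p = 0.839 and 0.841 in limma). That of NONO, which was not tested, differed by 0.05. The cold-induced RNA-binding protein RBM3 (0.54) and EWSR1 (-0.52) had the largest estimates of the list. Of 15 speckle and splicing factors 5 were tested, and of 13 genes near MALAT1 and NEAT1 on chromosome 11 6 were tested. None of either list was called in limma, with 0 at an unadjusted p below 0.05 and 0 with the trend option, and the largest estimates were SRSF3 (-0.31), SRSF2 (-0.31) and LTBP3 (-0.31).

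HOTAIR, the HOXC transcript known for its link to breast cancer metastasis, was under the floor on all 5 arrays, at 1.95 to 2.30, so no fold is given. Of 4 further probe sets under the symbols HOTAIR_2 to HOTAIR_5, 3 were under the floor on all 5 arrays, and HOTAIR_3 had means of 3.00 and 2.97. The HOTAIR probe set was thus not detectable above background on the 5 arrays compared. On A03 it read 3.20, close to the 95th percentile of 3.15 of the negative controls on that array. Its neighbours HOXC11 and HOXC12, developmental transcription factor genes, were at or under the floor as well, HOXC12 on all 5 arrays and HOXC11 on all but 1, while HOXC8, HOXC9 and HOXC13 were above it on all 5. Of 7 HOXC genes found 6 were tested with limma and none passed, with 1 (HOXC10, under the floor on all 5 arrays) at an unadjusted p below 0.05 and 0 with the trend option, and the median change was -0.29.

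TUG1, known from the developing retina and described with PRC2, read 7.53 and 7.61 on the MCF10.AT1 arrays and 7.68, 7.85 and 7.63 on the MCF10.AT1-R arrays. All resistant arrays were higher, by as little as 0.03 between A02 and B04. The difference was 0.15 (95% interval -0.27 to 0.58 in the fit without a filter), and it turned to -0.23 when A03 was added to MCF10.AT1. Of 10 genes of PRC2 and of the REST and LSD1 complex 3 were tested with limma and none was called, with 0 at an unadjusted p below 0.05 and 0 with the trend option. JARID2, a PRC2 cofactor, had the largest estimate at -0.47 (adjusted p = 0.770 in limma).

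GAS5, which carries snoRNAs in its introns and binds the glucocorticoid receptor, read 8.92 and 9.08 on the MCF10.AT1 arrays and 8.93, 8.79 and 8.77 on the MCF10.AT1-R arrays. B02 lay just above A01, so the lines overlapped. The difference was -0.17 (95% interval -0.60 to 0.26 in the fit without a filter). Probe sets with the symbols of 7 of its snoRNAs were found, but 6 of their identifiers name other chromosomes than that of GAS5, so no values are given for them. Of 23 other snoRNA hosts 8 were matched by symbol, which leaves this list thin, and 2 were tested. None passed in limma, with 0 at an unadjusted p below 0.05 and 0 with the trend option. On all resistant arrays 4 of the 8 hosts read lower and 0 higher, against 11.1% and 12.2% of all transcript probe sets. Among the 4, DANCR was at -0.33 (adjusted p = 0.835 in limma) and ZFAS1 was under the floor on all 5 arrays.

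PVT1, a transcript next to MYC that is gained together with it in cancers, read 6.21 and 5.996 on the MCF10.AT1 arrays and 6.03, 5.72 and 6.13 on the MCF10.AT1-R arrays. The lines overlapped, and the change was -0.14 (SE 0.31, 95% interval -0.75 to 0.47, adjusted p = 0.917 in limma). CCAT1, an enhancer-derived transcript known from colon cancer, read 2.02 and 1.55 on the MCF10.AT1 arrays and 2.12, 2.42 and 2.07 on the MCF10.AT1-R arrays, all under the floor, so that the order of its arrays carries no information on expression and no fold is given.

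Of 16 genes found around PVT1 and CCAT1 9 were tested with limma and none passed, with 2 (MYC and FAM84B) at an unadjusted p below 0.05. On all resistant arrays 5 of the 16 read higher and 1 lower, against 12.2% and 11.1% of all transcript probe sets, with CCAT2 (higher) and PCAT2 (lower) under the floor on all 5 arrays, and the median change was 0.21. MYC, the oncogenic transcription factor, had means of 7.79 and 8.62, a change of 0.83 (adjusted p = 0.268 in limma). FAM84B, on the other side of CCAT1 from MYC, had means of 6.21 and 7.12, a change of 0.92 (adjusted p = 0.158). Both had all resistant arrays above both parental ones and stayed short of the threshold, and both passed it with the trend option (MYC 1.92e-08, FAM84B 9.79e-05). PVT1 did not pass with that option (adjusted p = 0.889). Of 16 MYC targets of ribosome biogenesis 3 were tested and none passed in limma, with 0 at an unadjusted p below 0.05 and 0 with the trend option and a median of -0.08.

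**Figure D3:**
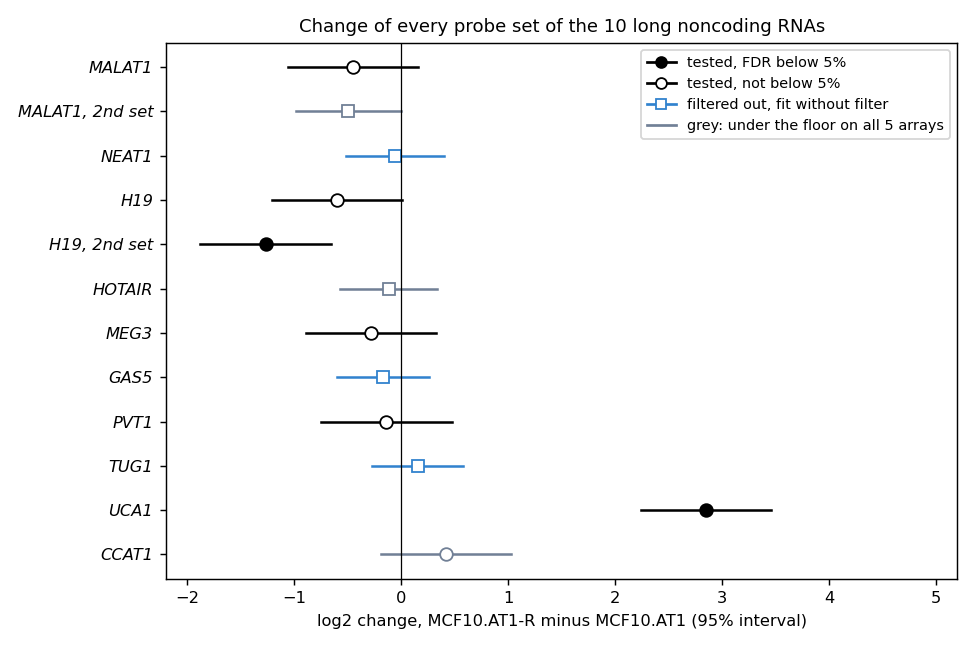
Log2 change between MCF10.AT1-R and MCF10.AT1 (x axis) with its 95% interval for all 12 probe sets of the 10 lncRNAs, where circles were tested, squares were removed by the filter and come from the fit without it, filled points passed the FDR of 5% and grey marks probe sets under the floor on all 5 arrays. UCA1 at 2.85 and the second H19 probe set at -1.27 are the filled points, and the intervals drawn for the other probe sets above the floor include 0. The intervals come from 2 fits, and in the fit without the filter, not drawn for tested probe sets, those of MALAT1 (-0.87 to -0.03) and of the main H19 probe set (-1.14 to -0.06) lie below 0.

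Further lists set these changes in context. Over all probe sets tested, 1.20% passed the threshold. Of 57 other cancer-associated lncRNAs found, 34 were tested and MIR205HG was the only one called, while SPRY4-IT1, a transcript of the SPRY4 locus described in melanoma, had the next largest estimate above the floor (-0.80, adjusted p = 0.307 in limma and 0.00638 with the trend option). Of 22 p53 targets, 20 were tested and TP53I3 (1.31) and SFN (1.28) rose, with CDKN1A, the cell cycle inhibitor p21, at 0.75 (adjusted p = 0.377). On all resistant arrays 11 of the 22 read higher and 3 lower, against 12.2% and 11.1% of all transcript probe sets. Of 18 proliferation genes 9 were tested and none passed in limma, with 1 (TOP2A) at an unadjusted p below 0.05 and 2 (TOP2A and PLK1) past the threshold with the trend option. Of the 18, 13 read lower on all resistant arrays (11.1% of all transcript probe sets did), with a median of -0.27 and TOP2A, the topoisomerase of dividing cells, at -0.67 (adjusted p = 0.503).

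Of the markers of other cell types 1 passed, PECAM1 among 5 endothelial ones, which fell by 1.12 on the log2 scale (adjusted p = 0.0307 in limma). Over all probe sets tested 1.20% passed. Of 6 luminal hormone receptor, 7 fibroblast, 6 leukocyte and 4 adipocyte markers 4, 2, 4 and 2 were tested with limma. None of these passed, with 1 (PLIN1, an adipocyte marker) at an unadjusted p below 0.05 and 0 past the threshold with the trend option. COL1A1, a collagen chain of fibroblasts that other cultured cells also make, had means of 7.03 and 7.18. The summed fibroblast levels ranged from 27.5 to 27.7 on the MCF10.AT1 arrays and from 27.1 to 28.9 on the MCF10.AT1-R arrays. The leukocyte sums were 15.8 to 17.3 and 17.7 to 20.2. The endothelial sums were 15.8 to 16.0 and 14.1 to 14.8. The part of these markers in the results was not tested.

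**Figure D4:**
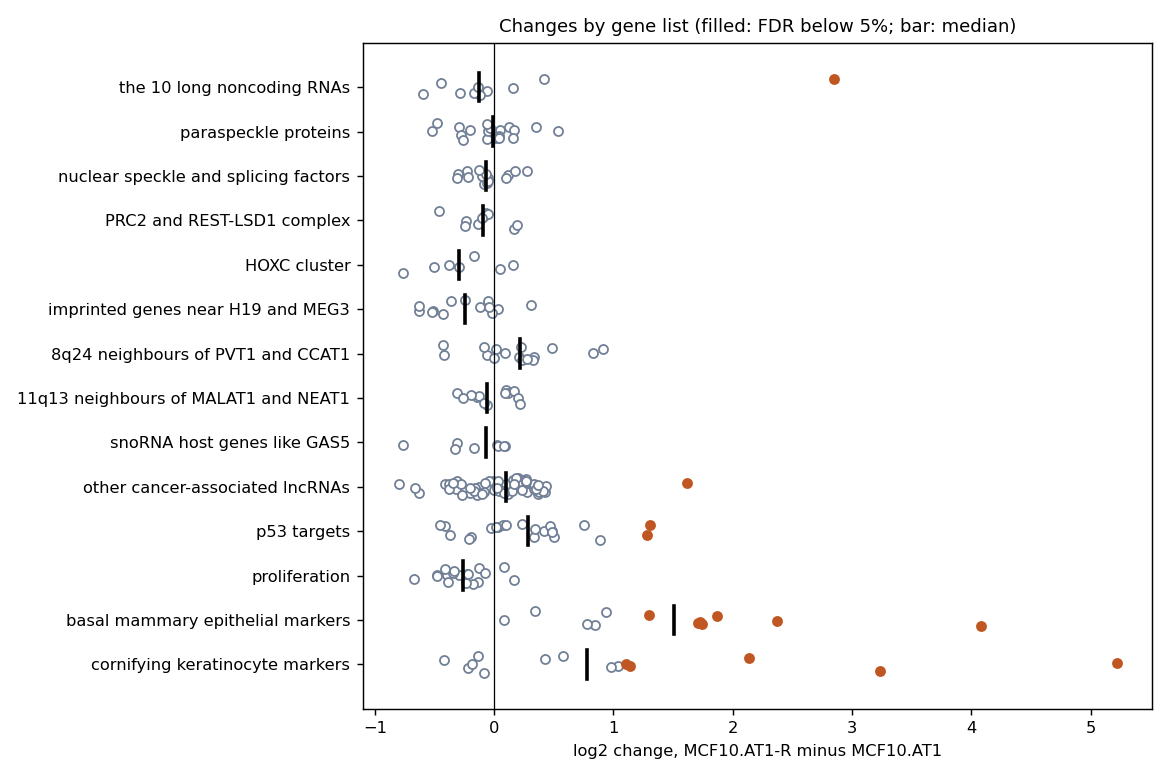
Log2 change between the lines (x axis) of each gene of the 10 lncRNAs and 13 further lists (rows), with genes past the FDR of 5% filled and the median of a list as a black bar. Filled points stand among the basal and keratinocyte markers, the p53 targets (2), the other lncRNAs (MIR205HG) and the 10 lncRNAs (UCA1), and the lists of protein partners and neighbours have none.

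On A03, the array set aside, 8 of the 10 lncRNAs read higher than on any of the other 5 arrays, where 44.0% of all transcript probe sets did. UCA1 (2.42) and CCAT1 (1.91) were the exceptions, and both were under the floor there. Above a mean level of 5, A03 lay above the other 5 arrays for 96 of 129 RefSeq lncRNAs (74.4%) and for 92 of 6528 protein-coding genes (1.41%), of which 96.4% lay below. The hybridisation control probe sets averaged 5.99 on A03 and 10.4 to 11.3 on the other 5. With A03 counted as MCF10.AT1, the changes of NEAT1, GAS5, PVT1 and TUG1 became -0.41, -0.51, -0.50 and -0.23, none of them past the threshold.

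**Figure D5:**
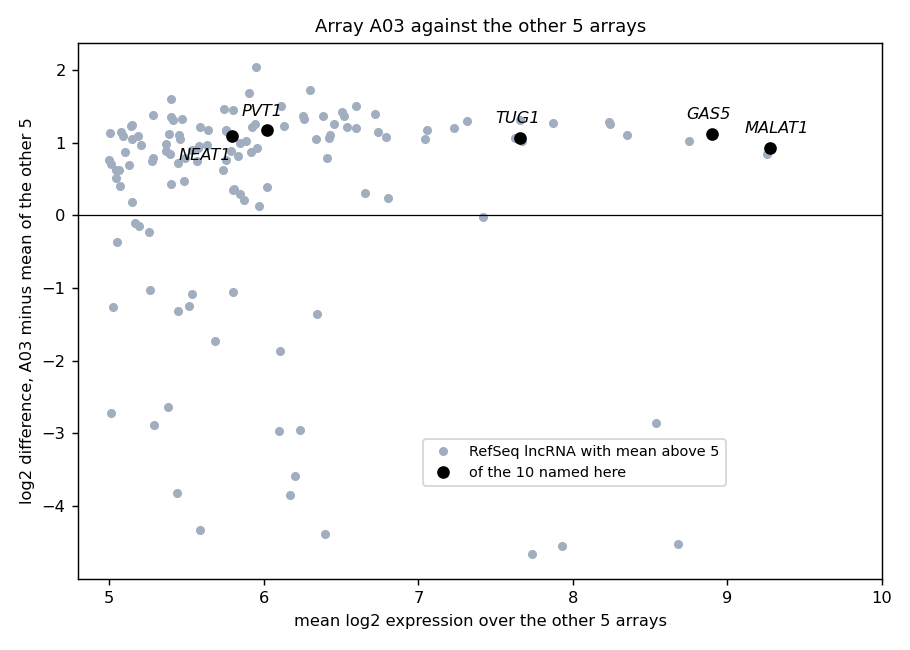
Difference in log2 expression between A03 and the mean of the other 5 arrays (y axis) against that mean (x axis) for the 129 RefSeq lncRNAs with a mean above 5 (grey) and the 5 members of the set above that level (black). NEAT1, PVT1, TUG1, GAS5 and MALAT1 lie 0.93 to 1.17 above 0, among most of the other lncRNAs.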

How the data were processed

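Clariom D arrays, 3 per line, measured total RNA of MCF10.AT1 and MCF10.AT1-R. The authors normalized the raw intensities by RMA with the Bioconductor packages affy and oligo and deposited log2 values for 135750 transcript and 2995 control probe sets on 6 arrays. The genome build of the probe sets is not given in the sources used here, so no gene coordinates are taken from them. The array names carry the line, as the component plot of the study shows, and no replicate number.

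The lines were compared on the 5 arrays without A03 by limma (version 3.58.1, R 4.3.3, functions lmFit and eBayes, two-sided, Benjamini-Hochberg over all probe sets tested, FDR 5%). Tested were probe sets with a mean above the median (1.88) and an SD above the lowest 25% (0.18), which left 51457. limma then used 1 common SD, which is strict for probe sets with close arrays and lenient for variable ones. The methods of the study state no limits for low expression and invariance. The script was tested on simulated data. Precision is set by how few arrays there are.

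The 10 lncRNAs and all lists were chosen with earlier results of these data known. Of each list, the genes named are those past the threshold, up to the 6 with the largest change, or else up to 3 with the largest estimates above the floor, and partners or neighbours fixed by name, of which SNHG1 and SNHG5 were not matched. Other genes named here were chosen after their values were seen. Start regions and gene classes came from RefSeq tables on GRCh38.p14, to which 32941 of 81496 symbols matched. Levels are compared between arrays within a probe set only. Some members of the lists are counted and not reported here by name. Alternatives changed the variance model, the filters, the arrays, the normalization, the floor and the choice of probe set.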

Additional observations from a re-analysis of the deposited data

Results flagged for a closer look

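Array A03 took no part in the comparison of the lines, and 8 of the 10 lncRNAs read higher on it than on every other array. MALAT1 read 10.21 on the log2 scale, GAS5 read 10.02, TUG1 read 8.73, PVT1 read 7.19, NEAT1 read 6.89, MEG3 read 5.56, H19 read 4.69 and HOTAIR read 3.20. These values exceeded the highest of the other 5 arrays by 0.17 for H19 and by 0.98 for PVT1, with the other 6 between. HOTAIR was above the floor of 2.99 on A03 alone, but that floor leaves A03 out. The negative controls on A03 had a 95th percentile of 3.15, close to the 3.20 of HOTAIR. The share of all transcript probe sets that read highest on A03 was 44.0%, and what sets A03 apart was not tested here.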

How the results depend on the processing

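UCA1 kept its direction and its call under all 16 alternatives, with log2 changes from 1.94 to 3.00, and under the leave-one-out fits from 2.70 to 3.00. The count of the 10 lncRNAs past the threshold was 1, and 2 (UCA1 and MALAT1) with the trend option, with the low-expression filter alone and that option, and with the negative control filter and that option. The count whose arrays did not overlap was 5, and 6 to 8 when 1 array was left out, with 8 without A01. It was 4 with A03 added, with array weights and with values raised to the floor, which puts CCAT1 at the floor on every array, and 6 when the 5 arrays were normalized again. NEAT1 turned to 0.14 without A01 and TUG1 to -0.23 with A03 added. The probe sets past the threshold numbered 620, and 1377 with the trend option, 182 with the low-expression filter alone, 1086 with that filter and the trend option, 1380 with the negative control filter and the trend option, 177 with no filter, 26 with A03 added, 201 with array weights and 271 (without A02) to 595 when 1 array was left out, with 314 without A01. The causes of these differences were not tested. The second H19 probe set kept its call under 9 alternatives and lost it under 6. Normalizing again over the 5 arrays or centring them changed no call of the 10. Leaving out A01 or A02 leaves MCF10.AT1 with 1 array, which is then assumed to vary like the others. No paired analysis was possible because the array columns carry no replicate number, so the fit with a replicate block was not run. Levels under the floor, as for HOTAIR, CCAT1 and UCA1 in MCF10.AT1, limit what can be read from these arrays.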
